A study of Rattus norvegicus with 172 samples.

Results

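The day 3 response of dentate granule cells to pilocarpine-induced status epilepticus was set against the day 3 response to kainate-induced status epilepticus. The comparison used 48 of the 164 rats in the series (54 of 172 arrays) and was chosen by treatment, time and laboratory, not by any measured value. For each gene the change under pilocarpine (12 day 3 rats minus 12 control rats) was taken from 2 laboratories and averaged. The change under kainate (12 day 3 rats minus 12 control rats) was taken from 2 other laboratories in the same way. The difference of responses is the pilocarpine change minus the kainate change on a log2 scale. It is positive where the pilocarpine change is the more positive one.

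All rats were male Sprague-Dawley rats, for which the labels give a weight and no age. Pilocarpine rats of laboratories A and B received 1 mg/kg methylscopolamine and then 300 to 350 mg/kg pilocarpine, and pentobarbital ended the seizures after 90 min. Their controls carried the methylscopolamine too and got saline in place of pilocarpine. Kainate rats received 5 mg/kg kainic acid every hour, with a first dose of 7.5 mg/kg in laboratory B, and their controls received saline. In kainate laboratory A the seizures were left to end by themselves after 6 to 8 h, and in kainate laboratory B pentobarbital ended them after 90 min. Granule cells were cut by laser from stained 10 µm sections, caps of each rat were pooled, and the RNA was hybridised to 1-colour Affymetrix rat arrays. Each of the 8 groups held 6 rats.

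Granule cells are the principal neurons of the dentate gyrus and pass cortical input on to the hippocampus. Pilocarpine is a muscarinic acetylcholine receptor agonist, and kainate activates glutamate receptors of the kainate and AMPA classes. Either drug can start self-sustaining seizures, which are followed by microglial and astrocytic reactions, division of cells in the hippocampus and, weeks later, spontaneous seizures in many animals. The comparison asks how much of the granule cell layer's day 3 response depends on the agent that started the seizures.

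Each laboratory ran 1 model only, so that model and laboratory cannot be told apart, and an exact test over the 4 laboratories cannot give a p below 0.333. The p-values below measure the spread between rats within laboratories. Control levels already differed between the pilocarpine and kainate laboratories for 2404 of 10759 genes (22.3%) at an adjusted p under 0.05 (limma). Among the 4 genes with a different response the control levels differed by 0.23 or less. The median array signal lay between 28.6 and 48.2 over the 48 rats. In 12 exact permutation tests (two-sided) of array measures between day 3 and control rats, 6 against 6 in each laboratory, the lowest unadjusted p was 0.104. No rat stood apart by its correlation with its own group. The granule cell marker Prox1, a transcription factor of granule cell identity, was bright in all groups. It lay between 10.82 and 11.76 (median 11.40) in pilocarpine day 3 rats, against 11.01 to 12.37 (median 11.47) in pilocarpine controls. In kainate day 3 rats it lay between 10.45 and 11.28 (median 10.99), against 10.70 to 11.95 (median 11.30) in kainate controls. These and all levels below are log2(signal + 16).

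The day 3 responses to pilocarpine and kainate ran largely in the same direction, and the pilocarpine response was called for more genes. Under pilocarpine 1611 genes rose (15.0% of those tested) and 975 fell (9.06%) at an adjusted p under 0.05. Under kainate 542 genes rose (5.04%) and 406 fell (3.77%). A total of 681 genes changed in both models, and all 681 did so in the same direction. The change was larger in size under pilocarpine for 476 of them (69.9%), with a median size of 0.59 on the log2 scale under pilocarpine and 0.50 under kainate. Across the 10759 genes the 2 changes, each a mean of 2 laboratories, correlated with r = 0.70. Single laboratories A and B correlated with r = 0.63 within pilocarpine and r = 0.66 within kainate. Across models, pilocarpine laboratory A correlated with r = 0.48 with kainate laboratory A and 0.56 with B. Pilocarpine laboratory B correlated with r = 0.65 with kainate laboratory A and 0.61 with B. The value for means is not like for like with those for single laboratories. Genes of 1 rat are measured together, so these correlations describe the pattern over genes and carry no p. The models share no control rats, whereas the values of 1 laboratory share their day 3 and control rats over all genes.

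**Figure D1:**
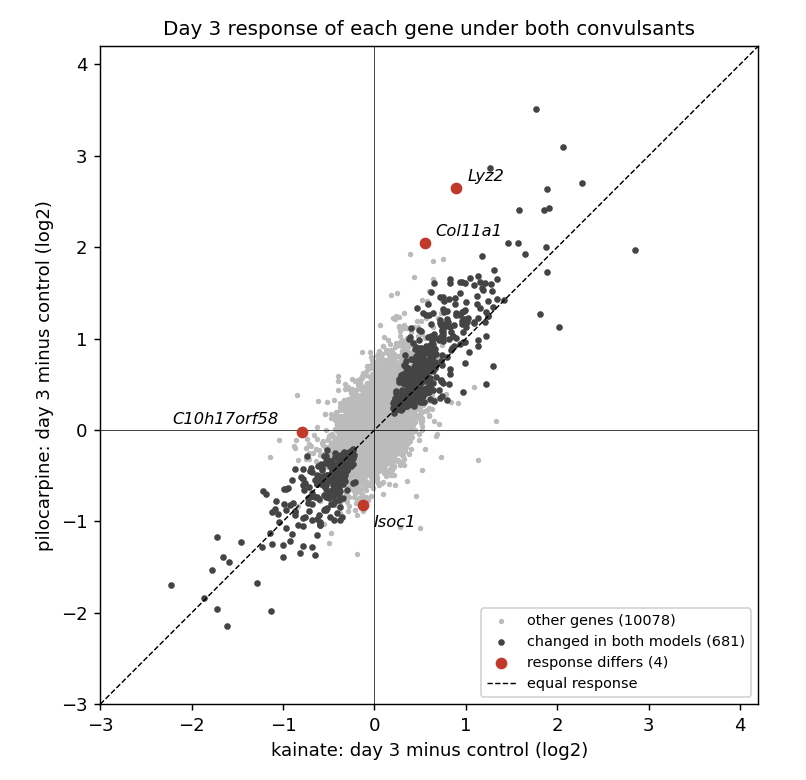
Change from control at day 3 (log2) under pilocarpine (vertical axis) and kainate (horizontal axis), 1 point a gene, 12 against 12 rats in each model. The 681 genes changed in both models (dark) lie in the same sign quadrants, and the 4 genes with a different response (red) lie off the dashed line of equal response.

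Among genes called in both models whose 95% interval of the difference lay within 1 log2 unit, the 8 largest rises and 8 largest falls by the mean of both models were taken as shared changes. Gdf10, a growth factor of the TGF-beta family, had levels of 4.33 to 5.59 (median 5.15) in pilocarpine day 3 rats, against 6.54 to 7.49 (median 7.04) in pilocarpine controls. In kainate day 3 rats it had 4.53 to 6.12 (median 5.69), against 6.69 to 7.77 (median 7.30) in kainate controls. No day 3 rat of either model overlapped its controls, and Gdf10 fell by 1.95 under pilocarpine and by 1.73 under kainate. The difference of responses was -0.23 (95% interval -0.63 to 0.18).

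Tafa1, which encodes a small secreted protein, had levels of 6.08 to 8.402 (median 7.31) in pilocarpine day 3 rats, against 8.73 to 9.52 (median 9.17) in pilocarpine controls. The kainate day 3 rats had 6.59 to 7.83 (median 7.45), against 8.89 to 9.55 (median 9.28) in kainate controls. Neither model's day 3 rats overlapped their controls, and the difference of responses was 0.03 (95% interval -0.40 to 0.45). C1s, a protease of the classical complement pathway, rose by 2.05 under pilocarpine and by 1.46 under kainate, with all 12 day 3 rats of each model above all controls of their own laboratory. Acvr1c, a receptor for activin-type ligands, rose by 1.42 in both models, with a difference of 0.01 (95% interval -0.53 to 0.54). The other 6 shared rises were Palmd (1.73 under pilocarpine and 1.89 under kainate), S100a3 (2.05 and 1.57), Fcrl2 (2.00 and 1.88), C1qa of the complement recognition complex (1.60 and 1.27), Nnat (1.66 and 1.34) and Lhfpl3 (1.60 and 1.21). The other 6 shared falls were Cdh13, a cadherin (-1.45 under pilocarpine and -1.59 under kainate), Gpc3, a glypican (-1.53 and -1.78), Ddit4l (-1.67 and -1.29), Rreb1 (-1.39 and -1.004), Lingo2 (-1.25 and -1.12) and Col25a1, a membrane collagen (-1.12 and -1.14). Of the 681 genes, 629 had a 95% interval of the difference inside 1 log2 unit either way, and 52 had an interval that reached further. Over all genes the interval lay inside that band for 10341 (96.1%), with a median half-width of 0.31.

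Only 4 genes passed the test of the difference of responses at an adjusted p under 0.05 (0.0372% of 10759, limma with Benjamini-Hochberg adjustment), and 1387 had an unadjusted p under 0.05. Lyz2, Col11a1 and C10h17orf58 had the higher response under pilocarpine and Isoc1 the lower. The 4 genes show 3 patterns. Lyz2 and Col11a1 had the larger increase under pilocarpine, Isoc1 fell under pilocarpine with a small difference under kainate, and C10h17orf58 fell under kainate, with opposite signs in the pilocarpine laboratories.

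Lyz2 encodes lysozyme, a bacterial cell wall enzyme made by macrophages and activated microglia. In pilocarpine laboratory A it had 9.24 to 11.91 (median 10.24) at day 3, against 6.44 to 8.55 (median 7.21) in controls. In pilocarpine laboratory B it had 8.53 to 10.45 (median 9.80) at day 3, against 7.27 to 7.78 (median 7.49) in controls. All 12 day 3 rats were above all controls of their laboratory. In kainate laboratory A Lyz2 had 7.46 to 8.51 (median 8.05) at day 3, against 6.79 to 8.72 (median 7.01) in controls. In kainate laboratory B it had 7.601 to 9.44 (median 8.62) at day 3, against 6.70 to 8.28 (median 7.41) in controls. There the groups overlapped, with 4 of the 12 day 3 rats above all their controls. Lyz2 rose by 2.65 ± 0.25 (SE) under pilocarpine and by 0.90 ± 0.25 under kainate, a difference of 1.75 (95% interval 1.02 to 2.48, limma adjusted p = 0.0388).

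Col11a1 encodes a chain of the fibrillar collagen XI. In pilocarpine laboratory A it had 7.47 to 10.30 (median 7.95) at day 3, against 5.47 to 6.69 (median 6.02) in controls. In pilocarpine laboratory B it had 7.19 to 9.05 (median 7.91) at day 3, against 5.84 to 6.80 (median 6.18) in controls. No day 3 rat overlapped the controls of its laboratory. In kainate laboratory A Col11a1 had 5.65 to 6.64 (median 6.04) at day 3, against 5.58 to 6.59 (median 5.74) in controls. In kainate laboratory B it had 6.84 to 7.48 (median 7.29) at day 3, against 5.99 to 6.73 (median 6.31) in controls. The groups were separate in laboratory B and overlapped in laboratory A, where the change was 0.18 and that of laboratory B 0.92. Col11a1 rose by 2.04 ± 0.21 under pilocarpine, and its change under kainate was 0.55 ± 0.21 (limma adjusted p = 0.111). The difference was 1.49 (95% interval 0.88 to 2.10, limma adjusted p = 0.0388), and a dimmer probe set of the same gene gave 1.26 ± 0.30 (SE). Col11a1 kept its call in 10 of 18 alternative settings. With a replicate block, for instance, the adjusted p of Col11a1 was 0.0584 in limma, which ends its call.

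Isoc1 encodes an isochorismatase domain protein. In pilocarpine laboratory A it had 7.83 to 8.48 (median 8.25) at day 3, against 8.77 to 9.16 (median 8.93) in controls. In pilocarpine laboratory B it had 7.40 to 8.37 (median 7.83) at day 3, against 8.48 to 8.99 (median 8.68) in controls. All 12 day 3 rats were below all controls of their laboratory. In kainate laboratory A Isoc1 had 8.73 to 9.06 (median 8.93) at day 3, against 8.82 to 9.12 (median 9.06) in controls. In kainate laboratory B it had 8.22 to 8.78 (median 8.59) at day 3, against 8.47 to 9.21 (median 8.61) in controls. The kainate groups overlapped in both laboratories. Isoc1 fell by 0.82 under pilocarpine, its change under kainate was -0.13 ± 0.09 (SE, limma adjusted p = 0.484), and the difference was -0.69 (95% interval -0.95 to -0.43, limma adjusted p = 0.0170). A second, dimmer probe set gave -0.17 ± 0.13 (SE), and the 2 probe sets therefore do not give the same size.

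C10h17orf58 is an open reading frame gene with no named function in the tables used here. In pilocarpine laboratory A it had 8.93 to 9.67 (median 9.31) at day 3, against 8.52 to 9.57 (median 9.12) in controls. In pilocarpine laboratory B it had 9.04 to 9.51 (median 9.27) at day 3, against 9.30 to 9.74 (median 9.52) in controls. The groups overlapped in both. In kainate laboratory A it had 8.51 to 8.98 (median 8.84) at day 3, against 9.28 to 9.64 (median 9.42) in controls. In kainate laboratory B it had 8.24 to 9.03 (median 8.69) at day 3, against 9.46 to 9.86 (median 9.62) in controls. All 12 kainate day 3 rats were below all controls of their laboratory. The change was 0.22 in pilocarpine laboratory A and -0.25 in pilocarpine laboratory B, where 5 of 6 day 3 rats were below all controls. It averaged -0.02 ± 0.10 (SE) under pilocarpine, and C10h17orf58 fell by 0.79 under kainate. The difference was 0.77 (95% interval 0.49 to 1.06, limma adjusted p = 0.0170). A dimmer probe set gave 0.30 ± 0.13 (SE).

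**Figure D2:**
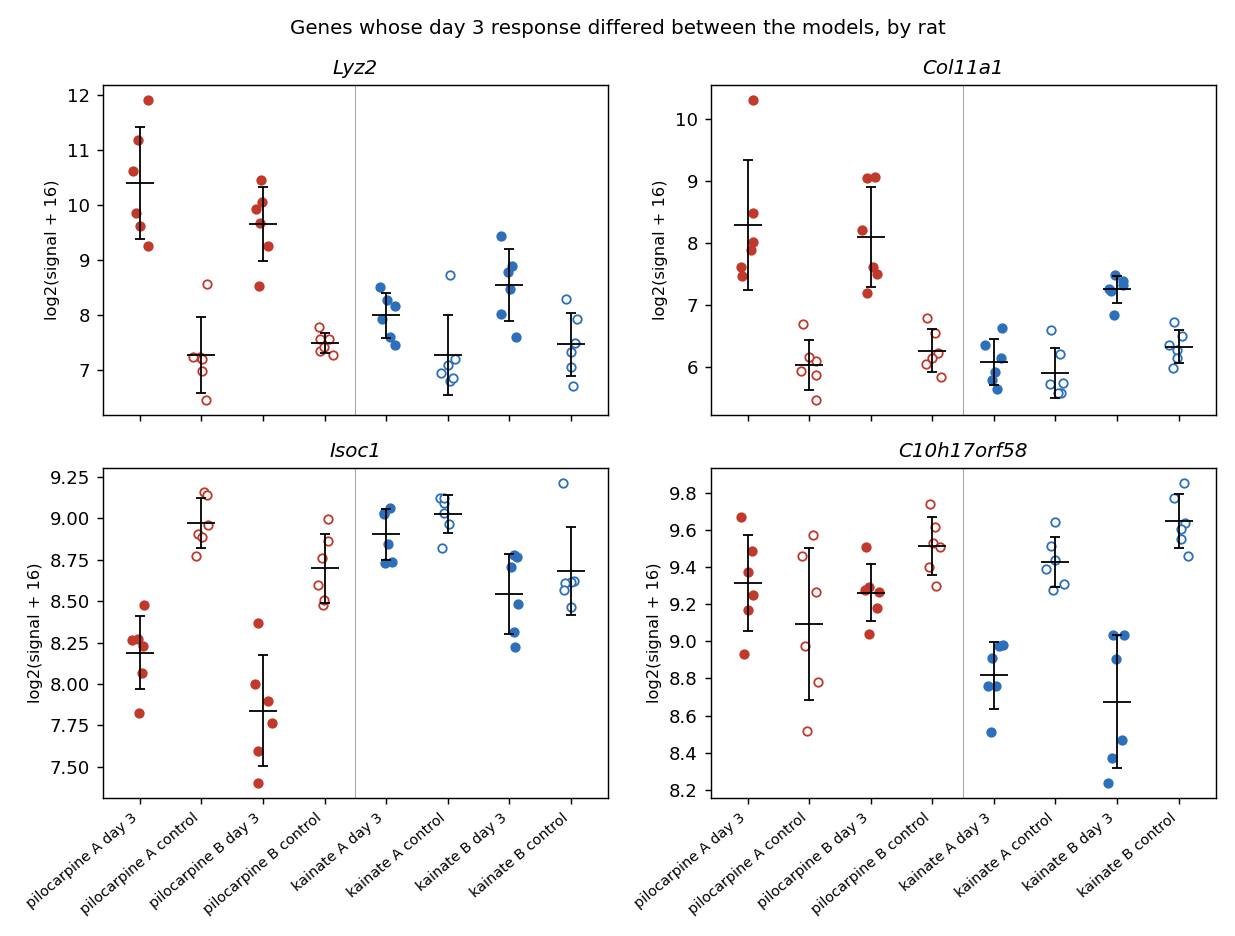
Level of Lyz2, Col11a1, Isoc1 and C10h17orf58, log2(signal + 16) on the vertical axis, in each rat of the 8 groups (filled, day 3; open, control; red, pilocarpine; blue, kainate), with the mean and SD of 6 rats. Pilocarpine day 3 rats are apart from their controls for the first 3 genes, and kainate day 3 rats are apart from theirs for C10h17orf58.

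The count of 4 moved with the laboratories, rats and arrays included. With pilocarpine laboratory B left out, 131 genes were called, and with any one of pilocarpine laboratory A, kainate laboratory A or kainate laboratory B left out none passed in limma, with 1344, 919 and 879 genes in that order at an unadjusted p under 0.05. Leaving out 1 rat at a time gave 2 to 121 genes, and C10h17orf58 and Isoc1 kept their calls in all 48 such fits, Col11a1 in 37 and Lyz2 in 31. The highest of these counts came without rat 1 of the pilocarpine laboratory A day 3 group. With only the first array of the 6 rats that had 2, of which 5 were pilocarpine laboratory A controls, 72 genes were called. Over 18 alternative settings C10h17orf58 kept its call in 13, Isoc1 in 12, Lyz2 in 11 and Col11a1 in 10.

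At the looser adjusted p under 0.10, a level chosen after seeing the data, 89 genes differed (0.827%), 62 with the higher response under pilocarpine and 27 with the lower. The genes just outside the first threshold were Shisa5 and Fxyd7 (limma adjusted p = 0.0506 each), followed by Cybb, Rasal1, Rin2 and Trib2 (0.0509). The genes named in the next 4 paragraphs were chosen after their values were seen.

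Of the 17 microglia and macrophage markers, 4 were among these genes (Lyz2, Gpnmb, Cd74 and Cd53). Gpnmb, a membrane glycoprotein of lipid-laden macrophages and microglia, had 6.10 to 9.72 (median 7.48) in pilocarpine day 3 rats, against 4.19 to 5.50 (median 4.84) in pilocarpine controls. It had 4.63 to 7.75 (median 5.84) in kainate day 3 rats, against 4.16 to 5.61 (median 4.67) in kainate controls. The pilocarpine groups did not overlap and the kainate groups did. Gpnmb rose by 2.87 under pilocarpine and by 1.27 under kainate, a difference of 1.60 (95% interval 0.83 to 2.37, limma adjusted p = 0.0711).

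Cd74, the invariant chain that escorts class II antigen-presenting molecules, had 6.49 to 8.30 (median 7.09) in pilocarpine day 3 rats, against 4.29 to 6.40 (median 5.22) in pilocarpine controls. It had 5.27 to 7.11 (median 5.84) in kainate day 3 rats, against 4.75 to 6.89 (median 5.14) in kainate controls. The pilocarpine groups were separate, and only 4 of the 12 kainate day 3 rats were above all controls of their laboratory. The difference of responses was 1.20 (95% interval 0.56 to 1.84, limma adjusted p = 0.0838). Clec7a, a receptor for fungal beta-glucans, rose by 1.67 under pilocarpine, while its change under kainate was 0.43 (limma adjusted p = 0.241). Cybb, the catalytic subunit of the phagocyte NADPH oxidase, rose by 1.24 under pilocarpine, while its change under kainate was 0.24 (limma adjusted p = 0.433). C5ar1, a receptor for the complement fragment C5a, rose by 1.11 under pilocarpine, with a change of 0.33 under kainate (limma adjusted p = 0.139). The inhibitory antibody receptor Fcgr2b and the tetraspanin Cd53 rose in both models, by 1.60 and 1.27 under pilocarpine and by 0.83 and 0.53 under kainate.

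A few genes had the larger increase under kainate. Mmp9, a secreted protease that cuts matrix proteins, had 5.11 to 7.06 (median 6.04) in pilocarpine day 3 rats, against 4.27 to 5.62 (median 4.96) in pilocarpine controls. It had 6.19 to 7.72 (median 6.98) in kainate day 3 rats, against 4.65 to 5.44 (median 5.00) in kainate controls. Kainate day 3 rats were all above their controls, as were 10 of 12 pilocarpine day 3 rats. Mmp9 rose by 1.13 under pilocarpine and by 2.02 under kainate, a difference of -0.89 (95% interval -1.32 to -0.46, limma adjusted p = 0.0718). Its dimmer probe set gave -0.72 ± 0.15 (SE). The serine protease gene Prss23 had 6.97 to 8.57 (median 8.21) in pilocarpine day 3 rats, against 5.34 to 7.25 (median 5.86) in pilocarpine controls. It had 8.04 to 9.46 (median 8.79) in kainate day 3 rats, against 5.05 to 6.90 (median 5.97) in kainate controls. All but 1 pilocarpine day 3 rat and all kainate day 3 rats were above their controls, and the difference of -0.88 (95% interval -1.39 to -0.38) had an adjusted p of 0.101 in limma. By laboratory Prss23 rose by 1.39 in pilocarpine A, 2.55 in pilocarpine B, 2.92 in kainate A and 2.79 in kainate B. Pilocarpine laboratory B thus lay nearer to the kainate laboratories than to pilocarpine laboratory A.

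Trib2, a pseudokinase of the tribbles family, had 6.48 to 9.11 (median 8.12) in pilocarpine day 3 rats, against 8.28 to 9.82 (median 9.30) in pilocarpine controls. It had 8.12 to 9.42 (median 8.79) in kainate day 3 rats, against 6.95 to 9.502 (median 8.79) in kainate controls. Trib2 fell by 1.06 under pilocarpine, its change under kainate was 0.28 (limma adjusted p = 0.528), and a dimmer probe set of Trib2 gave a difference of -0.05 ± 0.19 (SE). The kainate laboratories had opposite signs. Mean Trib2 in kainate laboratory A was 8.996 at day 3, against 9.157 in controls. In kainate laboratory B it was 8.653, against 7.939 in controls. The latter was the lowest control mean, beside 8.955 and 9.268 in pilocarpine laboratories A and B. The control levels of Trib2 differed by 0.56 between the models (limma adjusted p = 0.0469). Nhlh1, a helix-loop-helix factor of young neurons, had the reverse pattern, with a change of -0.11 under pilocarpine (limma adjusted p = 0.712) and a fall of 1.05 under kainate. Its mean level was 6.97 in pilocarpine day 3 rats, against 7.07 in pilocarpine controls, and 6.97 in kainate day 3 rats, against 8.02 in kainate controls. The day 3 levels of Nhlh1 were thus alike, and the control levels differed by -0.94 between the models (limma adjusted p = 8.48e-05). Ifitm1, an interferon-induced membrane protein, rose by 1.49 under pilocarpine and had a change of 0.25 under kainate (limma adjusted p = 0.611). Its control medians by laboratory were also low, at 4.24 to 5.05. Those of Gpnmb (4.46 to 5.10), Fcgr2b (4.16 to 4.40), Cybb (4.40 to 5.10), Clec7a (4.35 to 5.05) and C5ar1 (4.46 to 4.99) were similarly low. Hopx, a homeodomain-only protein found in hippocampal stem cells, rose in both models, by 1.33 under pilocarpine and by 0.46 under kainate. Penk, the enkephalin precursor, had a change of 1.15 under pilocarpine (limma adjusted p = 0.000111) and 0.06 under kainate, a difference of 1.09 (95% interval 0.45 to 1.73, limma adjusted p = 0.102).

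**Figure D3:**
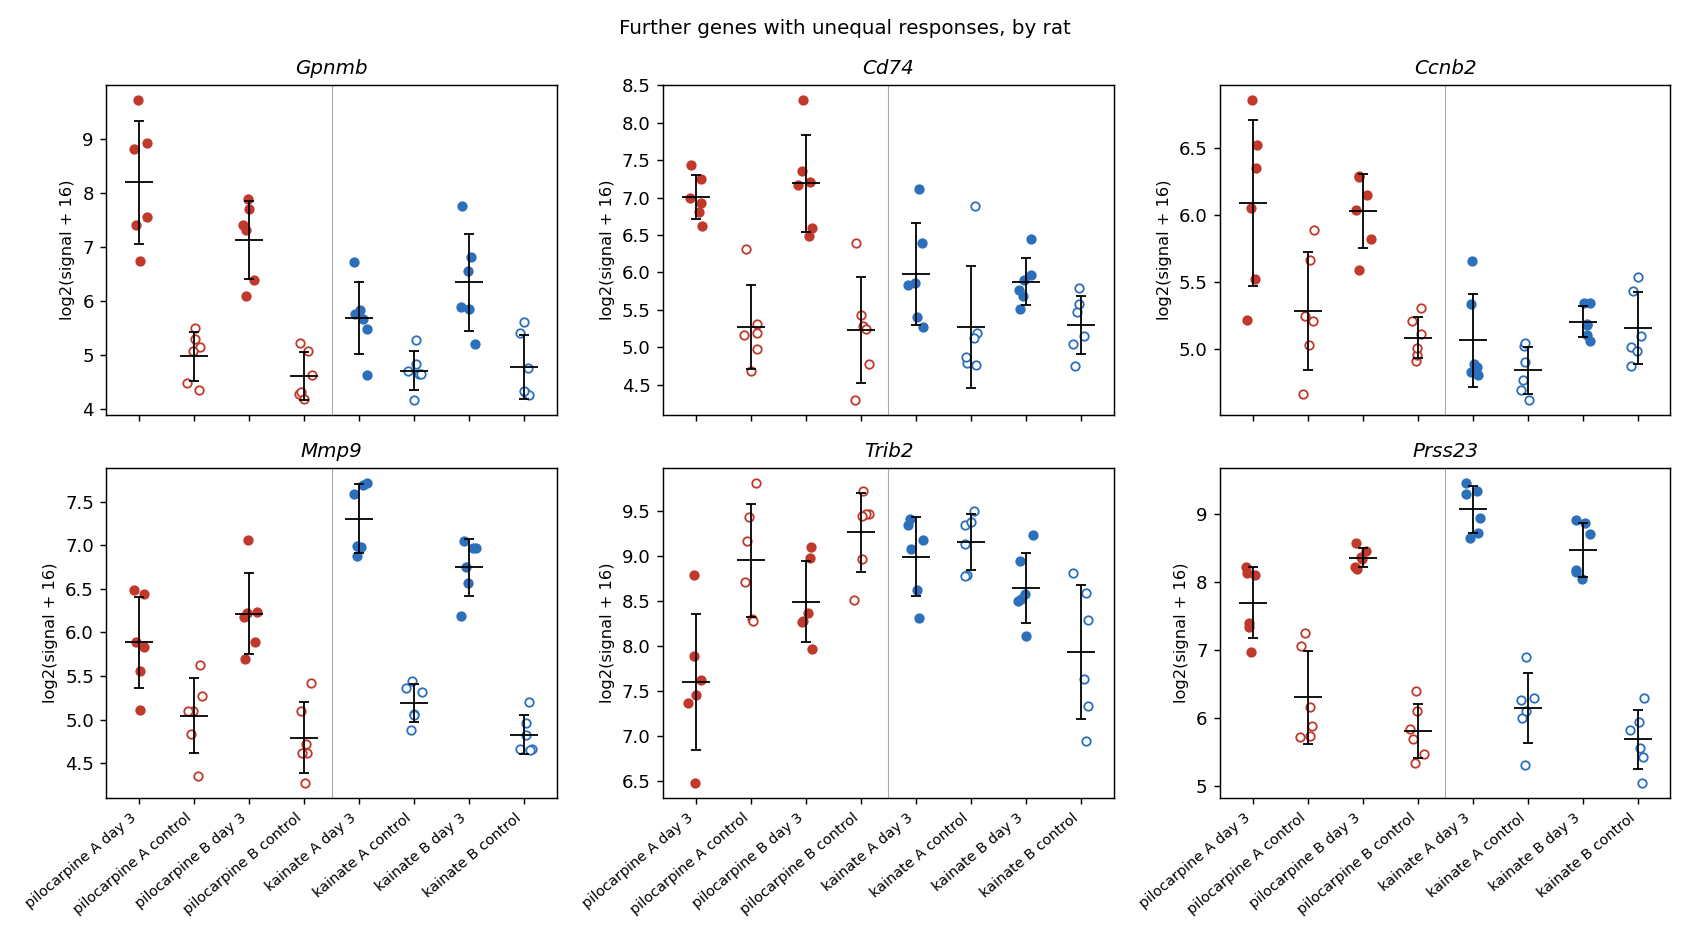
Level of Gpnmb, Cd74, Ccnb2, Mmp9, Trib2 and Prss23, log2(signal + 16) on the vertical axis, in each rat of the 8 groups (filled, day 3; open, control; red, pilocarpine; blue, kainate), with the mean and SD of 6 rats. Pilocarpine day 3 rats are the highest for Gpnmb and Cd74, and kainate day 3 rats are the highest for Mmp9.

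Gene lists were described by their counts and medians, beside a median difference of responses of 0.02 over all genes, 7.59% of genes with the higher and 5.30% with the lower response under pilocarpine at an unadjusted p under 0.05. Microglia and macrophage markers rose in both models. Of 22 genes in the list 17 were tested, and Itgam, Cx3cr1 and Trem2 did not pass the filter. Of the 17, 16 rose under pilocarpine and 14 under kainate, beside 15.0% and 5.04% of all genes. The median change was 1.27 under pilocarpine and 0.87 under kainate. Ptprc and Tyrobp were above the array median in 4 and 5 of the 48 rats, and Csf1r and Ctss in all 48. Members of any list that pass the filter only where they are high favour a rise, so that counts of rises are no test. The response was the higher one under pilocarpine for 14 of 17, and 5 of 17 had an unadjusted p under 0.05 in that direction and none in the other. The mean level of the list lay between 6.29 and 7.94 in pilocarpine day 3 rats (medians 7.21 in laboratory A and 6.55 in B), against 5.31 to 6.34 in pilocarpine controls. It lay between 5.99 and 6.72 in kainate day 3 rats (medians 6.28 in laboratory A and 6.62 in B), against 5.22 to 6.19 in kainate controls. The list's median change was 1.39 in pilocarpine laboratory A, 0.94 in pilocarpine laboratory B, 0.80 in kainate laboratory A and 0.93 in kainate laboratory B, so that the B laboratories of both models lay close together. P2ry12, a purine receptor of resting microglia, rose by 1.01 under pilocarpine and by 0.89 under kainate. Csf1r, the receptor that keeps microglia alive, rose by 0.44 under pilocarpine and by 0.71 under kainate. In samples of pooled cells, more cells of a type and more RNA per cell cannot be told apart.

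Of 10 complement genes, 8 rose under pilocarpine and 7 under kainate, beside 15.0% and 5.04% of all genes. The median change was 1.15 under pilocarpine and 0.90 under kainate. By laboratory it was 1.375 in pilocarpine A and 0.91 in pilocarpine B, and 0.83 in kainate A and 0.96 in kainate B. Pilocarpine laboratory B thus lay below kainate laboratory B. Of 23 genes of antigen presentation and the interferon response, 14 rose under pilocarpine and 4 under kainate, beside the same shares of all genes. Their median change was 0.46 under pilocarpine and 0.25 under kainate. By laboratory it was 0.49 in pilocarpine A and 0.42 in pilocarpine B, and 0.24 in kainate A and 0.31 in kainate B. B2m, the light chain of class I molecules, rose by 1.38 under pilocarpine and by 0.59 under kainate. The class II gene RT1-Da rose by 1.65 under pilocarpine, and its change under kainate was 0.64 (limma adjusted p = 0.0511). Of 23 lysosome and phagocytosis genes, 17 rose under pilocarpine and 6 under kainate, beside the same shares. Their median change was 0.59 under pilocarpine and 0.34 under kainate. By laboratory it was 0.82 in pilocarpine A and 0.34 in pilocarpine B, and 0.26 in kainate A and 0.39 in kainate B. Pilocarpine laboratory B thus lay below kainate laboratory B here too. Npc2, which carries cholesterol out of the lysosome, rose by 1.12 under pilocarpine, with a change of 0.43 under kainate (limma adjusted p = 0.0693). Axl, a receptor for the uptake of dying cells, rose by 0.96 under pilocarpine, with a change of 0.35 under kainate (limma adjusted p = 0.114). At an unadjusted p under 0.05 the higher response was under pilocarpine for 4 complement genes, 7 antigen presentation and interferon genes and 7 lysosome genes, and none of these lists had a gene with the lower.

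Of 15 reactive astrocyte genes, 12 rose under pilocarpine and 4 under kainate, beside 15.0% and 5.04% of all genes, with a median change of 0.75 under pilocarpine and 0.33 under kainate. The difference of responses was positive for 14 of the 15, and 4 had an unadjusted p under 0.05. Vim, the intermediate filament vimentin, had 7.23 to 10.88 (median 8.60) in pilocarpine day 3 rats, against 4.25 to 6.68 (median 5.33) in pilocarpine controls. It had 6.68 to 9.20 (median 7.39) in kainate day 3 rats, against 4.94 to 8.08 (median 5.76) in kainate controls. Vim rose in both models, and the difference of 1.75 (95% interval 0.76 to 2.75) had a limma adjusted p of 0.101. Gfap, the astrocyte filament, had 9.66 to 12.03 (median 10.70) in pilocarpine day 3 rats, against 7.37 to 9.45 (median 8.26) in pilocarpine controls. It had 10.28 to 11.30 (median 10.88) in kainate day 3 rats, against 7.71 to 10.20 (median 9.003) in kainate controls. All 12 day 3 rats of each model were above the controls of their laboratory, and the difference for Gfap was 0.52 (95% interval -0.09 to 1.14). The median change of the reactive astrocyte list was 1.06 in pilocarpine laboratory A, 0.36 in pilocarpine laboratory B, 0.18 in kainate laboratory A and 0.43 in kainate laboratory B. Of 15 general astrocyte markers, a list that also holds Gfap, 8 rose and 1 (Slc4a4) fell under pilocarpine. Under kainate Gfap was the 1 that rose and none fell. The part of these markers in the result was not tested.

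Of 19 cell division genes tested, 15 rose under pilocarpine and 8 under kainate, beside 15.0% and 5.04% of all genes, with a median change of 0.60 under pilocarpine and 0.31 under kainate, and 7 had the higher response under pilocarpine at an unadjusted p under 0.05. Ccnb2, the mitotic cyclin B2, had 5.22 to 6.86 (median 6.10) in pilocarpine day 3 rats, against 4.66 to 5.88 (median 5.16) in pilocarpine controls. It had 4.81 to 5.65 (median 5.14) in kainate day 3 rats, against 4.62 to 5.54 (median 5.00) in kainate controls. Ccnb2 rose by 0.87 under pilocarpine, its change under kainate was 0.13 (limma adjusted p = 0.672), and the difference was 0.74 (95% interval 0.36 to 1.12, limma adjusted p = 0.0827). Cdk1, the kinase that cyclin B activates, rose by 1.62 under pilocarpine and by 0.93 under kainate. Prc1, which bundles microtubules in the dividing cell, rose by 1.41 under pilocarpine, and its change under kainate was 0.57 (limma adjusted p = 0.0953). Mki67, the Ki-67 proliferation antigen, rose by 1.41 under pilocarpine and by 0.76 under kainate.

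Promoters of these genes are shown because many members that rose hold the letters of the cell cycle gene homology region (CHR). The CHR is an element of promoters active in late cell cycle phases. The letters TTTGAA were searched on both strands in the 250 bases before and 50 bases after each start in the RefSeq table of build GRCr8. They were found in 8 of 14 members that rose under pilocarpine and have a promoter there (57.1%), against 967 of 8971 promoters of all genes tested (10.8%). A match describes the letters only. Capitals mark the TTTGAA matches of Ccnb2 (chr8:79981609-79981908, minus strand), Cdk1 (chr20:19265043-19265342, plus strand) and Prc1 (chr1:143659231-143659530, plus strand), all written 5′ to 3′ along the gene.
Ccnb2: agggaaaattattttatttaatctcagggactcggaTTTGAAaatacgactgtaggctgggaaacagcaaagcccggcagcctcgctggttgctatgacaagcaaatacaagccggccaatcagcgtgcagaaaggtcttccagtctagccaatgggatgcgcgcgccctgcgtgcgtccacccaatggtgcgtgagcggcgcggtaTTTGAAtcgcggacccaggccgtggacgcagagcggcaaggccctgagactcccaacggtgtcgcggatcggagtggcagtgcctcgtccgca
Cdk1: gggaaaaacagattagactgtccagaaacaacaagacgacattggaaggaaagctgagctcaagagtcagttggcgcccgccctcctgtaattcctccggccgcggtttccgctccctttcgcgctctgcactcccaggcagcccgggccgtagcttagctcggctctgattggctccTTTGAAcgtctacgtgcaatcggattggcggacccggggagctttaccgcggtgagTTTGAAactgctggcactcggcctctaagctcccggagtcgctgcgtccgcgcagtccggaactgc
Prc1: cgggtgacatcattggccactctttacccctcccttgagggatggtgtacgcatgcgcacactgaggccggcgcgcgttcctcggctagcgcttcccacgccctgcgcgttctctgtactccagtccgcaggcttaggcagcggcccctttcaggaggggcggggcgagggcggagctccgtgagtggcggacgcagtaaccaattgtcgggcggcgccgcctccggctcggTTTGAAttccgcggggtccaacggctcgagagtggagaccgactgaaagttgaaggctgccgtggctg

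The letters of interferon elements were searched in the same way among antigen presentation and interferon genes, and a match again describes the letters only. The interferon-stimulated response element, GAAA followed by 2 bases of any kind and GAAA, was found in 4 of the 12 members that rose under pilocarpine and have a promoter (33.3%), against 246 of 8971 promoters (2.74%). The gamma-activated site, TTCNNNGAA, was found in 6 of 12 (50%), against 582 of 8971 (6.49%), and in 1 of 11 reactive astrocyte genes that rose under pilocarpine and have a promoter (9.09%). Both were found in 3 members, with overlapping letters in 1. The B2m promoter (chr3:129549080-129549379, plus strand, GRCr8, RefSeq) is shown as an example with the first element in capitals.
B2m: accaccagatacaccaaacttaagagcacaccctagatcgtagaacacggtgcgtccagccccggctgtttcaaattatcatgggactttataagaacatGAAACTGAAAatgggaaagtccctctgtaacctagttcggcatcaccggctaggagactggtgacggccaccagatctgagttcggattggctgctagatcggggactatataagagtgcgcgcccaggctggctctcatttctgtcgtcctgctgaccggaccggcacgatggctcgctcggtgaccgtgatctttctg

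Of 19 cholesterol synthesis genes, 13 fell under pilocarpine and 2 under kainate, beside 9.06% and 3.77% of all genes, with a median change of -0.38 under pilocarpine and -0.16 under kainate. The difference was negative for 18 of 19, 5 had an unadjusted p under 0.05, and none passed the adjusted test. Idi1, isopentenyl diphosphate isomerase, fell by 0.88 under pilocarpine, with a change of -0.21 under kainate (limma adjusted p = 0.526). Insig1, which holds the SREBP complex in the endoplasmic reticulum when sterols are plentiful, fell by 0.74 under pilocarpine, with a change of -0.15 under kainate (limma adjusted p = 0.645). Dhcr7 and Stard4, a late enzyme of the pathway and a sterol carrier, fell in both models. The sterol element letters TCACNCCAC were found in 0 of 10 promoters of members that fell under pilocarpine and in 95 of 8971 (1.06%).

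Matrix remodelling genes rose in 16 of 25 members under pilocarpine and in 6 of 25 under kainate, beside 15.0% and 5.04% of all genes. The median change was 0.57 under pilocarpine and 0.30 under kainate. By laboratory it was 0.75 in pilocarpine laboratory A, 0.37 in pilocarpine laboratory B, 0.11 in kainate laboratory A and 0.52 in kainate laboratory B. Pilocarpine laboratory B thus lay below kainate laboratory B. Of 8 endothelial and mural cell markers, 5 rose under pilocarpine and 0 under kainate, beside the same shares of all genes. Their median change was 0.37 under pilocarpine and 0.12 under kainate, and their part in the result was not tested. By laboratory the endothelial and mural median was 0.54 in pilocarpine A, 0.23 in pilocarpine B, -0.003 in kainate A and 0.21 in kainate B. At an unadjusted p under 0.05, 7 of the 25 matrix remodelling genes had the higher response under pilocarpine, among them Lgals1 (galectin 1). Mmp9 and Prss23 of that list had the lower. Lgals3, galectin 3 of phagocytes, rose by 3.10 under pilocarpine and by 2.06 under kainate, a difference of 1.04 (95% interval 0.37 to 1.71, limma adjusted p = 0.137). By laboratory Lgals3 rose by 3.434 in pilocarpine A, 2.755 in pilocarpine B, 1.356 in kainate A and 2.761 in kainate B. The B laboratories of both models were thus alike. Lox, which cross-links collagen, rose by 2.70 under pilocarpine and by 2.27 under kainate, with a difference of 0.43 (95% interval -0.31 to 1.17).

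Of 10 granule cell markers, 8 fell under pilocarpine and 5 under kainate, beside 9.06% and 3.77% of all genes. The median change was -0.48 under pilocarpine and -0.34 under kainate. By laboratory it was -0.62 in pilocarpine laboratory A and -0.31 in pilocarpine laboratory B. It was -0.26 in kainate laboratory A and -0.44 in kainate laboratory B, so that pilocarpine laboratory B fell less than kainate laboratory B. The difference was negative for 9 of 10, and 4 had the lower response under pilocarpine at an unadjusted p under 0.05. The glial lists above rose in the same rats, and their part in these values was not tested. Calb1, the calcium buffer calbindin, had 8.51 to 10.04 (median 9.59) in pilocarpine day 3 rats, against 10.43 to 11.05 (median 10.84) in pilocarpine controls. It had 8.82 to 10.39 (median 10.14) in kainate day 3 rats, against 10.14 to 10.94 (median 10.64) in kainate controls. All 12 pilocarpine day 3 rats and 10 of 12 kainate day 3 rats were below their controls, and the difference was -0.59 (95% interval -0.97 to -0.21, limma adjusted p = 0.131). Plk5, a polo-like kinase of neurons, fell by 1.69 under pilocarpine and by 2.22 under kainate.

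Of the 9 AMPA and kainate receptor genes and 2 cholinergic receptor genes tested, none passed the test of the difference, beside 0.0372% of all genes. Of the cholinergic ones only Chrm3 is muscarinic, so that most receptors for pilocarpine were not tested. Of the 9 AMPA and kainate receptor genes, Gria1 and Grik2 fell under pilocarpine, by 0.48 and 0.37, beside 9.06% of all genes. None passed under kainate. The difference was -0.37 for Gria1 (95% interval -0.77 to 0.04) and -0.19 for Grik2 (95% interval -0.50 to 0.12). Grik5 had the lowest unadjusted p of that list (0.0156), with a difference of -0.34 (95% interval -0.61 to -0.07), and Gria4 had -0.36 (95% interval -0.84 to 0.12). Of 11 cholinergic receptor and cholinesterase genes 2 were tested, Chrm3 with -0.16 under pilocarpine and -0.10 under kainate, and Chrna7 with 0.02 under pilocarpine and 0.21 under kainate, none of which passed. The 95% interval of the difference was -0.36 to 0.24 for Chrm3 and -0.72 to 0.34 for Chrna7. Of 26 immediate early genes, 9 rose and 1 fell under pilocarpine, beside 15.0% and 9.06% of all genes. Under kainate 5 rose and 2 fell, beside 5.04% and 3.77% of all genes. Fos had 0.87 under pilocarpine (limma adjusted p = 0.167) and 0.19 under kainate (limma adjusted p = 0.893), and its difference of 0.68 had a wide 95% interval, -0.61 to 1.98. Bdnf, a neurotrophin induced by activity, rose by 0.72 under pilocarpine and by 0.62 under kainate, a difference of 0.10 (95% interval -0.33 to 0.53). Npy, the inhibitory neuropeptide Y, rose by 1.29 under pilocarpine and by 0.95 under kainate, a difference of 0.34 (95% interval -0.51 to 1.18).

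**Figure D4:**
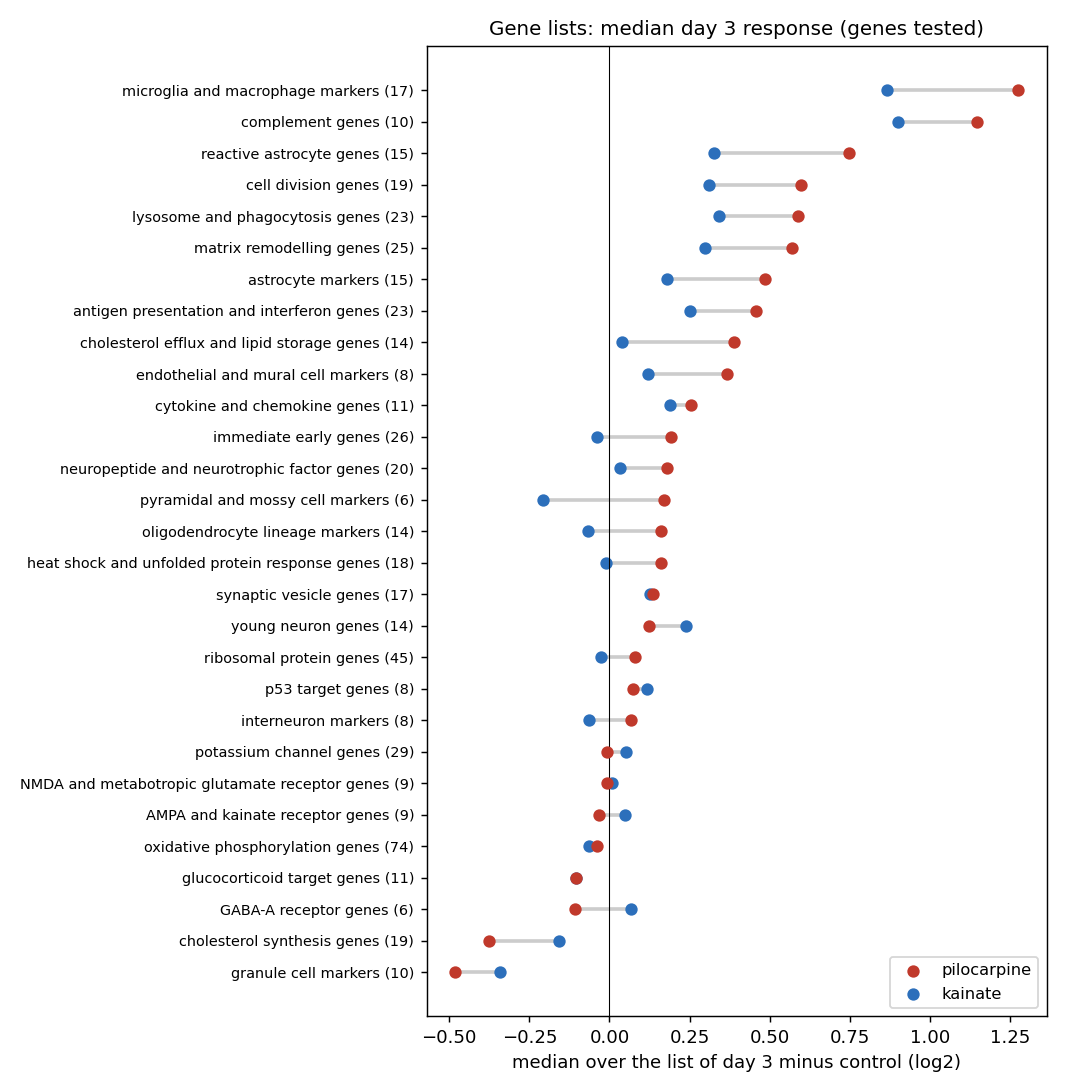
Median change from control at day 3 (log2) over the tested genes of each list under pilocarpine (red) and kainate (blue), with the number of genes tested in brackets and lists of fewer than 6 left out. Microglia and macrophage markers have the highest median under pilocarpine (1.27) and complement genes under kainate (0.90), and granule cell markers are lowest, at -0.48 under pilocarpine and -0.34 under kainate.

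The 2 laboratories of a model were compared in the same way. Between pilocarpine laboratories A and B no gene passed at an adjusted p under 0.05 in limma, and 1254 had an unadjusted p under 0.05 (11.7%). Between kainate laboratories A and B, which differed in how the seizures ended, no gene passed in limma, and 265 had an unadjusted p under 0.05 (2.46%). The SD of the estimates over genes was 0.31 for the pilocarpine laboratories, 0.22 for the kainate laboratories and 0.235 for the model difference, whose median SE (0.15) was smaller than that of a laboratory contrast (0.21).

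Values on days 1 and 10 were read from a fit of all 28 groups, in which a model's days share its controls. In that fit 391 genes had a different response between pilocarpine and kainate on day 1, 25 on day 3 and 50 on day 10. Isoc1 was not among the 25 (limma adjusted p = 0.0735), whereas Lyz2, Col11a1 and C10h17orf58 were. The change in Lyz2 under pilocarpine was 2.22 on day 1, 2.65 on day 3 and 0.86 on day 10, and under kainate it was 1.26, 0.90 and 0.14 on the same days. Col11a1 had 1.56, 2.04 and 1.03 under pilocarpine and 0.71, 0.55 and 0.02 under kainate. In both models the day 10 values of Lyz2 and Col11a1 were the lowest. Isoc1 had -1.24, -0.82 and -0.89 under pilocarpine and -0.87, -0.13 and -0.30 under kainate. C10h17orf58 had -0.81, -0.02 and -0.43 under pilocarpine and -1.02, -0.79 and -0.58 under kainate. For C10h17orf58 under pilocarpine, the day 3 value was nearer 0 than those of days 1 and 10. In rats with electrically self-sustained status epilepticus (SSSE), a model from another laboratory, Isoc1 had -0.63, -0.50 and -0.30 and C10h17orf58 had -1.22, -0.81 and -0.67 on days 1, 3 and 10. Mmp9 had 1.70, 1.13 and 1.38 under pilocarpine, 1.84, 2.02 and 1.12 under kainate and 1.67, 2.98 and 1.85 in SSSE rats.

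**Figure D5:**
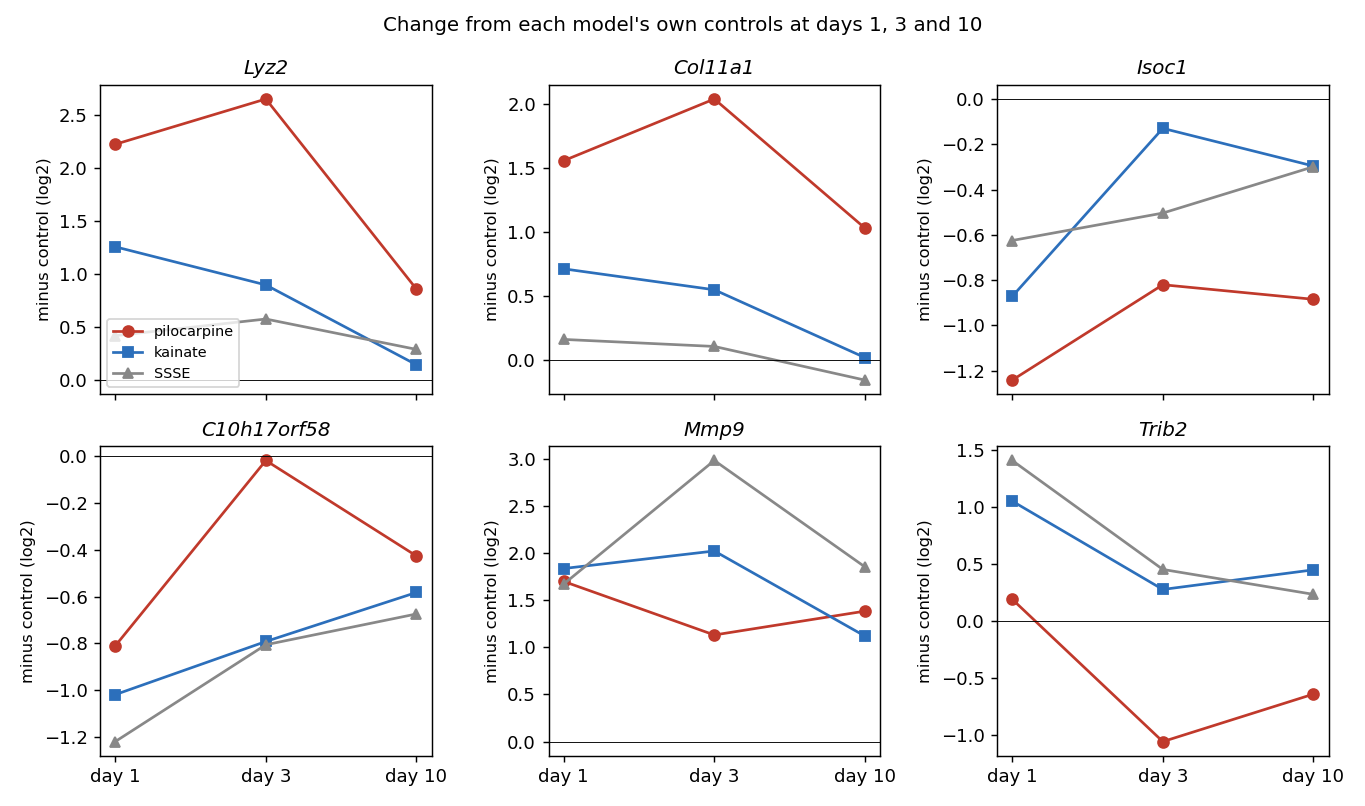
Change from each model's own controls (log2, vertical axis) on days 1, 3 and 10 for 6 genes under pilocarpine (red circles), kainate (blue squares) and SSSE (grey triangles). Lyz2 and Col11a1 are highest under pilocarpine on each day, and C10h17orf58 under pilocarpine lies near 0 on day 3 only.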

How the data were processed

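RNA of laser-captured granule cells was hybridised to 1-colour Affymetrix rat arrays. The deposited values are the authors' MAS5 signal intensity, per the submitters' processing notes, scaled on each array to one trimmed mean (2% trimmed at each end). Arrays of 1 rat were averaged after log2(signal + 16). Of 31099 probe sets, 57 were array controls, 20826 had 1 gene symbol in the platform table, 436 several and 9780 none. Probe sets above their array's median in at least 6 of 164 rats were kept (14281), and the brightest stood for each of 10759 genes.

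Group means of 8 groups of 6 rats were fitted with limma 3.58.1 in R 4.3.3 and adjusted by Benjamini-Hochberg over all genes. The threshold was an adjusted p under 0.05. Figures were drawn with matplotlib 3.10.9. The number of arrays limits the precision. The labels give separate rats as replicates.

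Members and gene lists were chosen with earlier results of these data known. The text names called genes with both pilocarpine laboratories beyond both kainate laboratories, the 8 largest shared rises and 8 largest shared falls, up to 4 called members of a list, and a panel (Fos, Arc, Bdnf, Npy, Gfap, Vim, Prox1, Calb1, Lox, Lgals3, Prss23, Plk5, Mmp9 and Gdf10). Other list members were chosen after their values were seen. Alternatives covered the added constant, filter, scaling, probe sets, groups fitted, repeat arrays, blocks, and each laboratory or rat left out. The scripts were tested on simulated data.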

Additional observations from a re-analysis of the deposited data

Results flagged for a closer look

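The day 3 response differed between pilocarpine and kainate for 4 genes (Lyz2, Col11a1, Isoc1 and C10h17orf58), by a test of the difference itself.

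Several measures were looked at in each of the 8 groups of 6 rats, which gave 88 sets of 6 values. Of these sets, 13 held 1 rat far from the other 5, where chance gives about 1 in 20 for a single set. The sets share rats, and Lyz2 is also a member of the microglia and macrophage list, so that they are not independent. For Lyz2, rat 1 of the pilocarpine laboratory A controls had 8.552 (others 6.442 to 7.23) and rat 5 of the kainate laboratory A controls had 8.724 (others 6.79 to 7.188). Without the pilocarpine rat the Lyz2 difference was 1.88 (limma adjusted p = 0.0126), and without the kainate rat it was 1.60 (limma adjusted p = 0.0653), which ends its call. For Col11a1, rat 4 of the pilocarpine laboratory A day 3 group had 10.3 (others 7.467 to 8.482), and the difference without it was 1.29 (limma adjusted p = 0.0143). For Isoc1, rat 3 of the kainate laboratory B controls had 9.214 (others 8.467 to 8.618), and the difference without it was -0.74 (limma adjusted p = 0.00294).

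The mean level of the microglia and macrophage markers was 6.19 in rat 5 of the kainate laboratory A controls (others 5.221 to 5.535) and 5.784 in rat 1 of the pilocarpine laboratory B controls (others 5.312 to 5.481). That pilocarpine rat also had the highest endothelial marker level of its group, 5.847 (others 5.285 to 5.408). Oligodendrocyte markers stood at 8.73 in rat 1 of the pilocarpine laboratory A controls (others 6.404 to 7.092). Rat 1 of the kainate laboratory A day 3 group had 8.893 for astrocyte markers (others 8.575 to 8.664) and 6.54 for pyramidal and mossy cell markers (others 5.745 to 6.025). Interneuron markers were low in rat 5 of the pilocarpine laboratory B day 3 group, at 5.957 (others 6.263 to 6.421), and in rat 4 of the kainate laboratory A day 3 group, at 5.989 (others 6.396 to 6.64). Granule cell markers were low in rat 2 of the pilocarpine laboratory B day 3 group, at 8.745 (others 9.296 to 9.616). The part of these rats in the gene results, beyond the values given, was not tested.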

How the results depend on the processing

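The count of genes with a different response (4) was 0 to 131 over 18 alternatives, and the cause was not tested. It was 2 with 1 added before log2, 16 with 64 added, 2 without a filter, 9 with a stricter filter, 32 with quantile normalization and 32 with arrays centred on the median. It was 25 with 28 groups fitted, 72 with the first array only, 13 with the repeat array only, 57 with laboratory by day as a random block and 9 with trend and robust settings. It was 0 in limma with the mean of probe sets (1408 at an unadjusted p under 0.05), with 16 groups (920), and without pilocarpine laboratory A (1344), kainate laboratory A (919) or kainate laboratory B (879), and 131 without pilocarpine laboratory B. The count at an adjusted p under 0.10 (89) was 20 with 1 added, 164 with 64 added, 205 with quantile normalization, 0 with 16 groups, 155 with 28 groups, 295 with the first array only and 294 with the random block. It was 48 without pilocarpine laboratory A, 355 without pilocarpine laboratory B and 0 without kainate laboratory A or B. In the random block fit the correlation of rats within a block was estimated at -0.02. With a negative value that fit makes no allowance for a spread between laboratories, and its higher counts do not measure one.

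The pilocarpine count (2586) was 1602 without laboratory A and 1719 without B. The kainate count (948) was 354 without laboratory A, 228 without B and 504 with 16 groups. The control level count (2404, 935 higher and 1469 lower) was 614 without kainate laboratory A and 4123 without B, with 465 higher and 2770 lower after median centring, which moved the median of all genes to -0.13, and 1440 higher and 1435 lower without a filter. The count between the pilocarpine laboratories (0) was 5 with 64 added, 7 without a filter, 1 with a stricter filter, 3 with quantile normalization, 41 with 28 groups, 297 with the first array only and 1 with trend and robust settings.

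Replicate numbers did not pair the rats, since 7 of 24 pairs correlated over 0.1 (-0.39 to 0.32). With a replicate block 23 genes had a different response between the models and 2 between the pilocarpine laboratories. Col11a1 lost its call there (limma adjusted p = 0.0584), and the other 3 called genes kept theirs.

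Over the 48 fits without 1 rat the count was 2 to 121. It moved by over 1.5 times in 28 of them. It was 2 without pilocarpine laboratory A control 5 or day 3 rat 6, pilocarpine laboratory B control 4 or 6 or day 3 rat 4 or 6, kainate laboratory A control 5 or 6 or day 3 rat 2, or kainate laboratory B day 3 rat 6. The highest counts were 121 without pilocarpine laboratory A day 3 rat 1, 45 without control 6, 40 without control 1 and 29 without day 3 rat 2 of that laboratory, and 23 without pilocarpine laboratory B control 1. C10h17orf58 and Isoc1 kept their calls in all of these fits, and in 13 and 12 of the 18 other alternatives. Lyz2 kept its call in 31 of the 48 and 11 of the 18, and Col11a1 in 37 and 10. Unpassed differences changed sign for Arc (-0.1955 with 1 added, -0.02161 with quantile normalization, -0.01055 with the first array only, -0.1811 without pilocarpine laboratory B and -0.1198 without kainate laboratory B), Prox1 (0.01062 with the first array only and 0.1636 without kainate laboratory A), and Bdnf (-0.04136) and Lox (-0.2039) without pilocarpine laboratory B. Each laboratory ran 1 model, so model and laboratory cannot be told apart.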
